A study of Mus musculus with 9 samples.

Results

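The genes described here encode the ligands and receptors of the epidermal growth factor (EGF) family. They are 10 of the 23955 gene symbols in a table of RNA-seq counts from mouse gut organoids, taken by symbol: 7 ligands (Areg, Ereg, Btc, Epgn, Egf, Tgfa and Hbegf) and 3 receptors (Egfr, Erbb2 and Erbb3). All 10 were found in the table. Gut organoids are balls of epithelium cultured in a gel matrix, here in medium to which Noggin, EGF, bFGF, R-spondin1 and B27 had been added. Every group came from APCmin/+ mice, which carry 1 mutated copy of Apc, the gene whose product restrains Wnt signaling. MIN organoids were prepared from the normal tissue next to the tumors, adenoma organoids from the polyps themselves, and sulindac-treated organoids from polyps and then exposed to the NSAID sulindac, an inhibitor of cyclooxygenases. Each group had 3 samples. The age and sex of the mice, the sulindac dose and time for the organoids, and whether the biological replicates came from separate mice are not given in the sources used here.

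EGF family ligands are made as precursors anchored in the cell membrane, and cell surface proteases such as ADAM17 release them. They bind EGFR and, for some of them, the related receptor ERBB4. Bound receptors pair with each other, ERBB2 being the partner with no known ligand of its own and ERBB3 the partner that binds neuregulins and has little kinase activity, and the pairs signal through RAS and ERK. In the gut, EGF family signals drive the growth of crypt cells, Paneth cells of the small intestine are a known source of them, and EGF is a standard part of organoid medium. The Egf counts below are RNA in the cells and say nothing of the protein added to the medium.

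The samples held 30881206 to 48412477 counts, so a floor of 3 counts corresponded to 0.0647 to 0.0989 CPM, which are counts scaled to a common library size after TMM normalization. The epithelial identity of the cultures was visible in 6 epithelial markers, whose summed level was 4640 to 6440 CPM in MIN, 2900 to 3740 in adenoma and 4010 to 4610 in sulindac-treated samples. The list was mixed, since Krt18 averaged 551 CPM in MIN and 923 in adenoma, neither Krt18 nor Epcam passed, and 4 of the 6 were called lower in adenoma. Markers of other tissues were low. The 7 mesenchymal markers summed to 3.95 to 4.19 CPM in MIN, 1.99 to 2.38 in adenoma and 0.828 to 1.08 after sulindac, with Col1a2, Col3a1 and Dcn at 0 in all 9 samples, and the 3 endothelial markers to at most 0.568 CPM. Pdgfrb, a mesenchymal marker, had 127 to 176 counts in the MIN samples, 0 to 1 in adenoma and 0 after sulindac. The leukocyte list (6 of 7 in the table) summed to 4.55 to 6.30 CPM in MIN, 8.34 to 16.6 in adenoma and 2.97 to 4.19 in sulindac-treated samples. Its main gene in MIN was Itgam (3.74 ± 0.349 CPM, against 0.226 ± 0.127 in adenoma, SD, n = 3), and in the other groups it was Cd68. Ptprc, which defines leukocytes, had at most 8 counts in any sample.

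Markers of the gut's own cell types differed between the groups. Paneth cell markers summed to 15400 to 18500 CPM in MIN, 905 to 1290 in adenoma and 184 to 280 after sulindac. Of these 7 genes 6 were called lower in adenoma than in MIN, while Mmp7 was called higher, at 188 ± 5.49 CPM in MIN, 705 ± 118 in adenoma and 157 ± 32 after sulindac (SD, n = 3). Enterocyte markers summed to 2010 to 2420, 4.67 to 5.42 and 3.80 to 4.16 CPM, and goblet cell markers to 1630 to 1760, 97.3 to 201 and 53.3 to 113 CPM in the same order. Stem cell markers summed to 1110 to 2240, 341 to 589 and 150 to 333 CPM. Olfm4 made up most of that sum in MIN (1220 ± 505 CPM) and was at 0.124 ± 0.102 CPM in adenoma, Lgr5 was called lower as well, Ascl2 was called higher (25.1 ± 7.81 and 64.9 ± 6.95 CPM, SD, n = 3), and Smoc2 did not pass. Enteroendocrine markers were at 232 to 472 CPM in MIN and at most 0.408 CPM elsewhere, and tuft cell markers at 7.43 to 13.0, 1.43 to 2.83 and 0.495 to 0.89 CPM. The part of this change in the ligand and receptor values below was not tested, and in bulk RNA fewer cells of a type and less RNA per cell cannot be told apart. MIN replicate 3 stood apart from the other MIN samples in the stem cell sum (the lowest), in the enteroendocrine sum (the highest) and in several ligands. Fold changes without it are given for Areg, Btc and Hbegf. They are not given for Ereg and Epgn, in which it was also the highest MIN sample.

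The genes Epgn, Ereg, Areg and Btc lie next to each other, in that order, among the protein-coding genes of the table on chromosome 5, while the other ligands and the receptors lie elsewhere (Egf on chromosome 3, Tgfa on 6, Hbegf on 18, Egfr and Erbb2 on 11, Erbb3 on 10). Promoter windows from 250 bases before to 50 bases after the start site were held by the RefSeq table of GRCm38.p6 for 7 of the 10 genes, Ereg, Hbegf and Erbb3 being those without an entry. The windows of 3 genes of the chromosome 5 group and of Tgfa, the ligand that moved the other way between MIN and adenoma, are shown 5′ to 3′ on the gene's strand, with matches to the motifs searched in capitals.
Epgn promoter, chr5:91027267-91027566, plus strand: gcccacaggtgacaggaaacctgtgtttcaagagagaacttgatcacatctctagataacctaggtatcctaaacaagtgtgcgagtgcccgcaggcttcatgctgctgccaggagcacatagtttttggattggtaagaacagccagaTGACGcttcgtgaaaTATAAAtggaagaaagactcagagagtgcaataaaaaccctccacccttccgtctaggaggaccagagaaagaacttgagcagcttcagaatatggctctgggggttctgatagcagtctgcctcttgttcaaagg
Areg promoter, chr5:91139349-91139648, plus strand: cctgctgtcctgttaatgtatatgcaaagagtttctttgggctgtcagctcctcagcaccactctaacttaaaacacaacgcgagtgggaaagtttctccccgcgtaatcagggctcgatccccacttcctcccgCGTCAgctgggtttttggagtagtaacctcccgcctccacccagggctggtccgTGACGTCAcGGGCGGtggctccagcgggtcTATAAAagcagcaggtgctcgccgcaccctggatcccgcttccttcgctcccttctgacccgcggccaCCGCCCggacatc
Btc promoter, chr5:91402945-91403244, minus strand: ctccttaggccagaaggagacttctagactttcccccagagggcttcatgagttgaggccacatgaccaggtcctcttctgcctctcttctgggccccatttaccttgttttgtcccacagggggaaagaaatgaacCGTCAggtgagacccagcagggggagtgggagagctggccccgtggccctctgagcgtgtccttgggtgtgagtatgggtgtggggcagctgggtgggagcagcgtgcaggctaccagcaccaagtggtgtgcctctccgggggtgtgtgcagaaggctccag
Tgfa promoter, chr6:86194972-86195271, plus strand: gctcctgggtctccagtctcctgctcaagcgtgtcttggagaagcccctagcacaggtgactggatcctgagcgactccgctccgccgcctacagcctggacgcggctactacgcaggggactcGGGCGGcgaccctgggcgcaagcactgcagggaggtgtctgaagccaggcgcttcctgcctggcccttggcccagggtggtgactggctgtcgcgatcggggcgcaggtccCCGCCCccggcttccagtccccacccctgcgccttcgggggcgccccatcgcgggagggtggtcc

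The motifs were chosen after the expression values were seen and were searched on both strands. They were the cAMP response element (CRE) TGACGTCA, its core TGACG, the AP-1 site TGANTCA, the TCF/LEF site ATCAAAG, the E-box CACGTG, the GC box GGGCGG and the TATA box TATAAA. The Areg window held the full CRE, starting at position -61 from the start site. It is a palindrome and so contains the core on each strand, at -61 and -58, and a further core lay at -115, with a TATA box at -31 and GC boxes at -52 and 37. The full CRE was present in 1.79% of the 32851 mouse promoter windows and the core in 20.8%. A core was also present in the Epgn window at -101, beside a TATA box at -86, in the Btc window at -113, and in the Erbb2 window at -171. The Tgfa window held GC boxes at -126 and -15 and no CRE core, and that of Egfr a GC box at -9. GC boxes were present in 35.7% and TATA boxes in 13.6% of all windows. No member window held the AP-1 site, the TCF/LEF site or the E-box, which were present in 7.81%, 3.73% and 7.15% of all windows. A match is a description of these letters and not evidence of binding.

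The comparison of adenoma with MIN asks how the tumor organoids differ from those of the adjacent normal tissue. In adenoma, 4 ligands (Areg, Ereg, Btc and Egf) and 2 receptors (Erbb2 and Erbb3) were downregulated, Tgfa was upregulated, and Hbegf and Egfr did not pass the threshold, which was a false discovery rate (FDR) of 1% over all genes in the quasi-likelihood test of edgeR. Areg fell 8.81-fold, Egf 4.26-fold and Btc 2.89-fold, Ereg was not detected in adenoma, and Tgfa rose 1.70-fold. Of the 9 genes tested, 1 was higher and 6 were lower, while of all 13744 genes tested 38.7% were called, 18.5% as higher and 20.1% as lower. The groups did not overlap in 7 of the 9, against 62.6% of all genes. The median log2 fold change of the 9 was -0.92, and that of all genes was -0.01. The median is unchanged with Ereg at its bound. Epgn did not pass the low-count filter, and Ereg passed it through its MIN levels, so its call is no independent support.

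Areg encodes amphiregulin, a ligand of EGFR. Its level was 72.0, 71.1 and 244 CPM in the MIN samples and 15.1, 10.5 and 18.4 CPM in the adenoma samples. The groups did not overlap, and the highest value, that of MIN replicate 3, was 3.41 times the mean of the other MIN samples. Areg was downregulated in adenoma, with a log2 fold change of -3.14 (SE 0.51, adjusted p = 0.000876 by edgeR's quasi-likelihood test). Without MIN replicate 3 the fall was 4.86-fold, with an adjusted p of 0.000124 by edgeR. The call was lost without adenoma replicate 1 (-3.16, adjusted p = 0.0109 by edgeR) and with no filter on low counts (-3.14, adjusted p = 0.014 by edgeR).

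Ereg, the gene of epiregulin, a ligand of EGFR and ERBB4, was the member that separated the groups most completely. The MIN samples had 363, 188 and 397 counts, or 8.84, 4.05 and 10.7 CPM, and all 3 adenoma samples had 0 counts. With a floor of 3 counts per library, Ereg was at least 92.6-fold lower in adenoma (adjusted p = 8.07e-05 by edgeR's quasi-likelihood test). Epgn, the gene of epigen, another EGFR ligand, was close to the detection limit throughout. It had 11, 11 and 19 counts in MIN and 1, 3 and 1 in adenoma, a ratio of 6.98 with an exact 95% counting interval of 2.76 to 22.6. The lower level was the same in direction as for Ereg, and with no filter on low counts its adjusted p by edgeR was 0.00568.

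Btc encodes betacellulin, which binds EGFR and ERBB4. Its level was 48.3, 43.2 and 98.1 CPM in MIN and 23.3, 20.9 and 21.4 CPM in adenoma. Each MIN sample was above each adenoma sample, and the adenoma samples lay close together (21.9 ± 1.25 CPM, SD, n = 3). The log2 fold change was -1.53 (SE 0.29, adjusted p = 0.00226 by edgeR's quasi-likelihood test). It was -1.06 without MIN replicate 3, and the call was lost without adenoma replicate 3 (-1.52, adjusted p = 0.0189 by edgeR).

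Egf, which encodes the ligand that gave the family its name, was scarce in these cultures. Its level was 2.63, 2.11 and 2.19 CPM in MIN (81 to 108 counts) and 0.449, 0.560 and 0.609 CPM in adenoma (16 to 21 counts). The groups were well apart, and the log2 fold change of -2.09 (SE 0.28, adjusted p = 0.00027 by edgeR's quasi-likelihood test) ranged from -2.18 to -1.97 over the settings tried. Of the 50-base stretches in Egf transcripts, 8.11% also occur in other transcripts, mainly of the antisense gene Gm42697. The strand setting of the counting is not given in the sources used here, so reads from these stretches cannot be assigned to Egf or to its antisense partner. Shared stretches made up 2.26% of Ereg (with the antisense gene Gm19610), 1.08% of Tgfa (with Gm43917) and 0.23% of Egfr (mainly with Abhd18). Areg, Btc, Epgn, Hbegf, Erbb2 and Erbb3 share no 50-base stretch with another gene.

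Tgfa, the gene of transforming growth factor alpha, another EGFR ligand, moved the other way. Its level was 40.2, 44.3 and 41.0 CPM in MIN and 74.0, 79.4 and 59.3 CPM in adenoma. The groups did not overlap, and the MIN samples, replicate 3 included, differed little (41.8 ± 2.13 CPM, SD, n = 3). Tgfa was upregulated with a log2 fold change of 0.76 (SE 0.13, adjusted p = 0.00108 by edgeR's quasi-likelihood test), and the call held in each setting tried. Hbegf, which encodes heparin-binding EGF, had 14.7, 17.2 and 35.4 CPM in MIN and 18.8, 14.9 and 19.1 CPM in adenoma. These groups overlapped, and the log2 fold change of -0.35 (SE 0.31, adjusted p = 0.377 by edgeR's quasi-likelihood test) turned to 0.15 without MIN replicate 3.

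**Figure D1:**
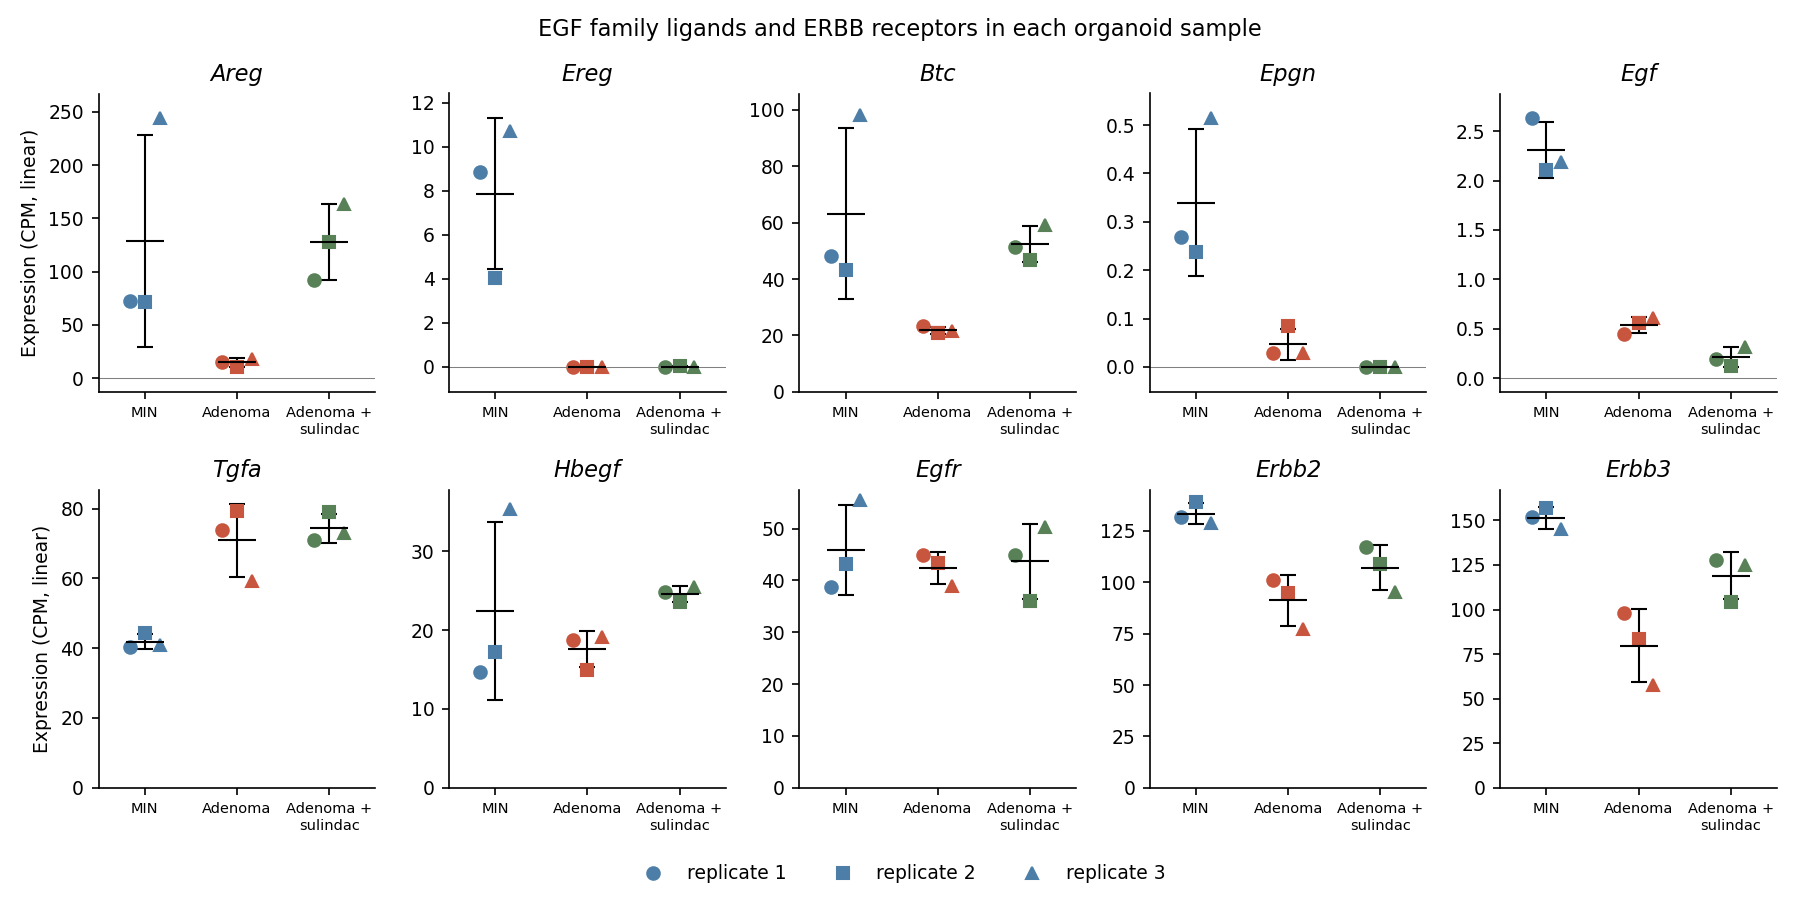
Level of each ligand and receptor gene in each organoid sample, in CPM on a linear axis that starts at or just below 0 and differs between panels. Symbols mark the replicate, horizontal lines the group mean and bars the SD (n = 3). Areg and Btc are low in adenoma and higher in MIN and after sulindac, Ereg is seen only in MIN apart from 1 count in a sulindac-treated sample, and Tgfa is lowest in MIN.

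Sulindac-treated adenoma organoids were compared with untreated ones to see which genes respond to the NSAID. Areg rose 8.81-fold and Btc 2.42-fold, and none of the other ligands or the receptors passed the threshold. Of the 8 genes tested, 2 were higher and 0 lower, while 17.4% of all 12962 genes tested were called, 8.32% as higher and 9.1% as lower. By edgeR's quasi-likelihood test 1 member, Egf, was lower at an unadjusted p under 0.05, and the DESeq2 Wald test also called 0 members lower. Groups did not overlap in 5 of the 8, against 48.7% of all genes. The median log2 fold change of the 8 was 0.37, and that of all genes was -0.01.

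Areg had 92.1, 128 and 164 CPM in the sulindac-treated samples, against the 10.5 to 18.4 CPM of untreated adenoma. The lowest treated sample was thus several times the highest untreated one, and the log2 fold change was 3.14 (SE 0.25, adjusted p = 0.000149 by edgeR's quasi-likelihood test). Leaving out each sample in turn gave 2.92 to 3.32, with the call kept each time. Btc had 51.4, 46.7 and 59.3 CPM after sulindac, against 20.9 to 23.3 CPM in untreated adenoma. Its log2 fold change was 1.28 (SE 0.12, adjusted p = 0.000309 by edgeR's quasi-likelihood test), and this call too held in each setting. The leukocyte marker Cd68, the only gene of its list tested here, fell in the same comparison, from 11.5 ± 4.26 to 3.30 ± 0.51 CPM (SD, n = 3). Paneth cell markers were lower as well. Of the 6 epithelial markers 2 were called higher (Vil1 and Krt8) and 0 lower.

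Ereg stayed at the floor in the treated samples. It had 0, 1 and 0 counts after sulindac and 0 in untreated adenoma, too few for a test or a fold. Epgn had 0 counts in the 3 treated samples and 1 to 3 in the untreated ones, which is not a detectable difference at this depth. Egf had 0.198, 0.123 and 0.320 CPM after sulindac (4 to 11 counts) and was below each untreated sample. Its adenoma levels (16 to 21 counts) carried it through the filter, and its log2 fold change of -1.30 (SE 0.42, adjusted p = 0.0421 by edgeR's quasi-likelihood test) did not pass.

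Hbegf had 24.8, 23.5 and 25.4 CPM after sulindac, against 14.9 to 19.1 CPM in untreated adenoma. The groups did not overlap, yet the log2 fold change of 0.50 (SE 0.13) had an adjusted p of 0.0168 by edgeR's quasi-likelihood test, and of 0.00229 by the DESeq2 Wald test. Tgfa had 71.0, 78.9 and 73.0 CPM after sulindac. These values lay within the range of the untreated samples, with a log2 fold change of 0.08 (SE 0.13, adjusted p = 0.672 by edgeR's quasi-likelihood test).

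The sulindac-treated adenoma samples were also set beside MIN. This comparison shares its samples with the others, so it adds no independent data. Of the 9 genes tested, 1 was higher (Tgfa) and 2 were lower (Ereg and Egf), while 49.7% of all 13551 genes tested were called, 23% as higher and 26.8% as lower. Both members called lower passed the low-count filter through MIN, where they are high, and 0 members were called lower when at least 10 counts were required in every sample, since Ereg and Egf were then not tested. Groups did not overlap in 5 of the 9, against 69% of all genes. The median log2 fold change of the 9 was -0.27, and that of all genes was -0.03.

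Areg averaged 128 ± 35.9 CPM after sulindac and 129 ± 99.5 CPM in MIN (SD, n = 3). The log2 fold change was -0.01 (SE 0.47, adjusted p = 0.984 by edgeR's quasi-likelihood test), and it rose to 0.84 without MIN replicate 3 (adjusted p = 0.0157 by edgeR), so the placing of Areg against MIN rests on that sample. Btc gave -0.27 (SE 0.29, adjusted p = 0.448 by edgeR's quasi-likelihood test), and 0.20 without the same sample. For Hbegf the log2 fold change of 0.14 (SE 0.30) did not pass with all samples and was 0.63 without MIN replicate 3, with an adjusted p of 0.000925 by edgeR. Tgfa was 1.78-fold above MIN (log2 fold change 0.83, SE 0.08, adjusted p = 3.26e-05 by edgeR's quasi-likelihood test).

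Ereg, Egf and Epgn had lower levels than MIN both in adenoma and after sulindac. Over the treated samples Ereg had 1 count, against 948 in MIN, a ratio of 742 with an exact 95% counting interval of 133 to 29300 (adjusted p = 1.23e-05 by edgeR's quasi-likelihood test). Egf was 10.6-fold lower than in MIN (log2 fold change -3.40, SE 0.36, adjusted p = 6.17e-05 by edgeR's quasi-likelihood test). Epgn, with 0 counts in the treated samples, was at least 3.66-fold lower than in MIN, and with no filter on low counts its adjusted p by edgeR was 0.000705.

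**Figure D2:**
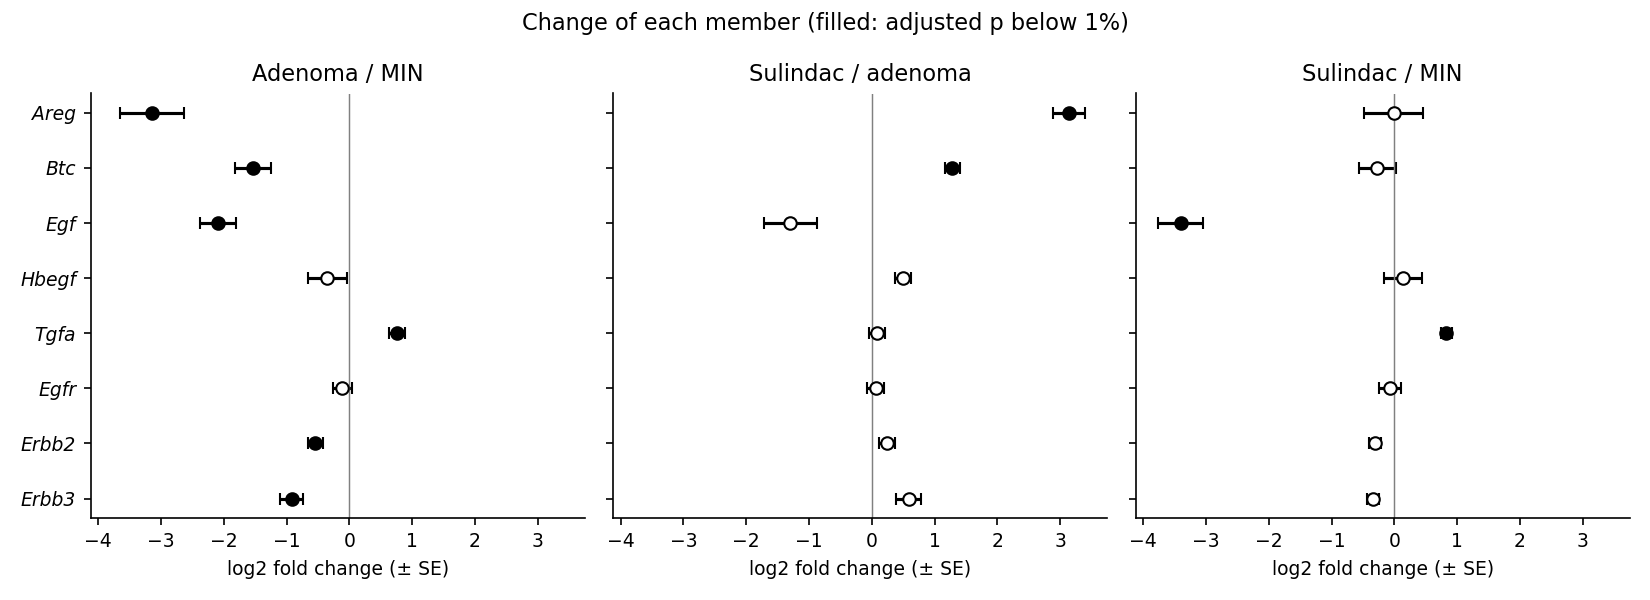
log2 fold change of each member in the 3 comparisons, with bars of ± SE and filled points for an adjusted p below 1% in edgeR's quasi-likelihood test. Ereg and Epgn are left out because a group was at or near 0 counts. Areg and Btc lie to the left for adenoma against MIN and to the right for sulindac against adenoma, while Egf lies to the left in all 3 panels.

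To compare ligands with each other, CPM were divided by the length of the longest transcript in kilobases. On this scale the 7 ligands summed to 142 ± 93.9 CPM per kilobase in MIN (range 86.6 to 250), 39.4 ± 2.40 in adenoma (36.7 to 41.2) and 143 ± 31 after sulindac (113 to 175) (SD, n = 3). MIN replicate 3 was at 250 and the other MIN samples at 88.1 and 86.6, below each sulindac-treated sample, so the MIN mean rests on that replicate. The adenoma samples all lay below those of the other groups. Areg made up 71.8% of the ligand sum in MIN (67.3% to 80.4%), 30.5% in adenoma (23.5% to 37.6%) and 72.8% after sulindac (67.2% to 77.3%). It was the most abundant ligand RNA in each MIN and each sulindac-treated sample. Tgfa made up 8.34% in MIN (3.63% to 11.3%), 40% in adenoma (32.5% to 47.8%) and 11.8% after sulindac (9.24% to 13.9%). In adenoma the ranges of the Areg and Tgfa shares overlapped.

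The shares depend on the transcript length assumed. With the mean length of each gene's transcripts in place of the longest, the average share of Areg was 57.6%, 17.8% and 57.3% in MIN, adenoma and sulindac-treated samples, and that of Tgfa was 15%, 52.7% and 21.2%. By either length the adenoma samples had the lowest mean share of Areg and the highest of Tgfa, and for Areg the means of MIN and sulindac-treated samples changed places. Btc made up 11.9%, 13.8% and 9.29% of the ligand sum by longest transcript, and Hbegf 5.85%, 15.4% and 6.11%. Ereg contributed 1.53% in MIN, and Egf at most 0.628% in any sample.

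**Figure D3:**
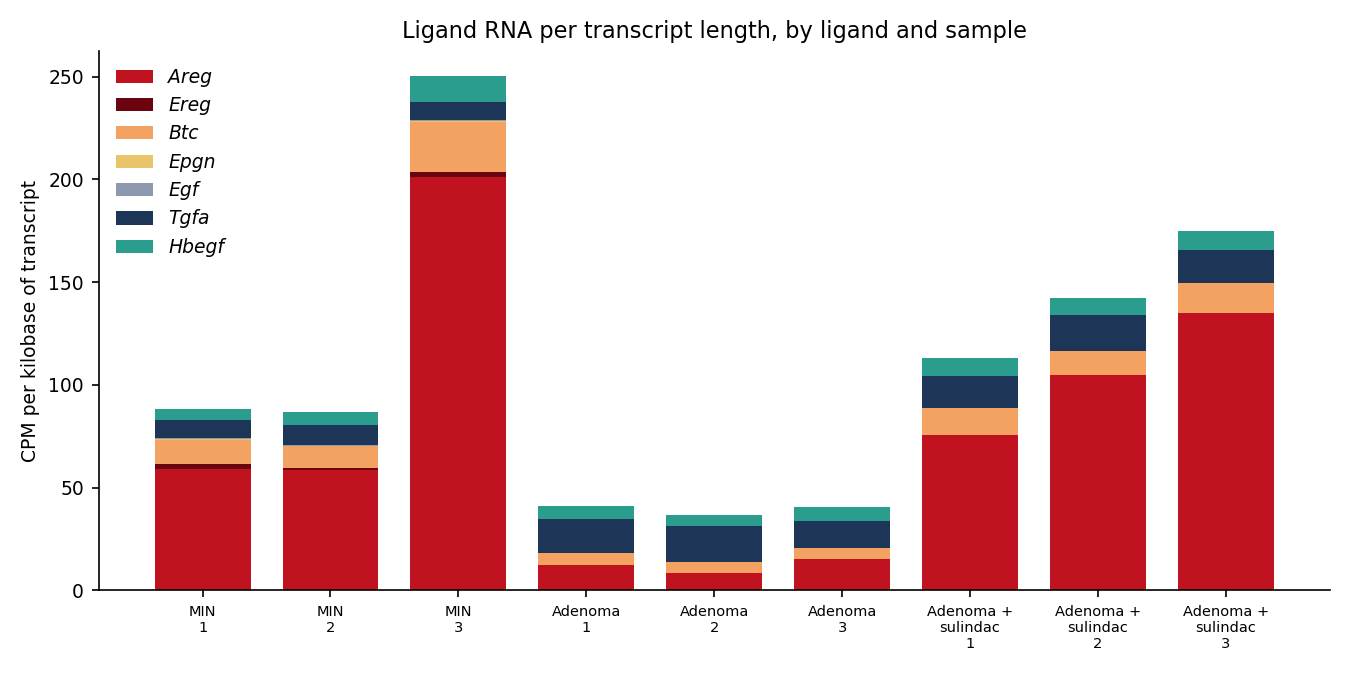
Ligand RNA in each sample, in CPM per kilobase of the longest transcript on a linear axis from 0, stacked by ligand. The adenoma bars reach 36.7 to 41.2 and the others 86.6 or more, and Areg fills most of each MIN and sulindac-treated bar.

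The 4 ligand genes on chromosome 5 all had lower mean levels in adenoma than in MIN. Areg and Btc were called lower, as were 20.1% of all genes tested. Ereg was called lower too, but it passed the low-count filter through its MIN levels, and Epgn did not pass that filter. After sulindac Areg and Btc rose, and Ereg and Epgn, on the other side of Areg, did not come up from the floor. Neighbours were taken by their place on the chromosome, 4 on each side. Next to Btc lies Parm1, a gene for a mucin-like membrane protein, with 59.9 ± 25.1 CPM in MIN, 33.6 ± 5.38 in adenoma and 59.3 ± 6.61 after sulindac (SD, n = 3). Its log2 fold change was -0.84 for adenoma against MIN (SE 0.27, adjusted p = 0.029 by edgeR's quasi-likelihood test), which did not pass, and 0.83 after sulindac (SE 0.15, adjusted p = 0.00409 by edgeR), which did. Rchy1, the next gene, did not pass in either comparison (-0.12 and 0.08). Beyond it Cdkl2 and G3bp2 were higher in adenoma than in MIN (1.30 and 0.57) and did not pass after sulindac. On the Epgn side, Mthfd2l did not pass in either comparison. The chemokine gene Cxcl1 was low, at 0.106, 0.483 and 0.103 CPM in MIN, adenoma and sulindac-treated samples. It was called higher in adenoma (log2 fold change 2.17) and lower after sulindac (-2.17). Cxcl1 passed the low-count filter through its adenoma levels and was near the floor in the other groups. Its calls are therefore no independent support, and it was not tested for sulindac against MIN. Cxcl2 and Cxcl15 were not tested.

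Of the receptors, Egfr, which binds the ligands above, changed least. Its level was 38.8, 43.2 and 55.6 CPM in MIN, 45, 43.3 and 38.9 in adenoma and 44.9, 36.0 and 50.3 after sulindac. The groups overlapped, with log2 fold changes of -0.11 (SE 0.15) for adenoma against MIN, 0.06 (SE 0.14) for sulindac against adenoma and -0.07 (SE 0.17) for sulindac against MIN, and adjusted p-values of 0.556, 0.776 and 0.749 by edgeR's quasi-likelihood test. None of the 3 signs was stable when samples were left out.

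Erbb2 encodes the partner receptor without a ligand. Its level was 132, 139 and 129 CPM in MIN, 101, 94.9 and 77.5 in adenoma and 117, 109 and 95.2 after sulindac. Each MIN sample was above all others, and treated and untreated adenoma overlapped. Erbb2 was lower in adenoma than in MIN, with a log2 fold change of -0.54 (SE 0.12, adjusted p = 0.00499 by edgeR's quasi-likelihood test). That call was lost when MIN replicate 1, MIN replicate 2, MIN replicate 3 or adenoma replicate 2 was left out, with adjusted p-values by edgeR of 0.016, 0.0238, 0.0105 and 0.0133. It was also lost with library size alone as the scaling (-0.41, or -0.53 relative to the median of all genes). After sulindac the log2 fold change was 0.24 against adenoma (SE 0.13, adjusted p = 0.198 by edgeR's quasi-likelihood test) and -0.31 against MIN (SE 0.09, adjusted p = 0.0183).

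Erbb3 encodes the neuregulin receptor that pairs with ERBB2, and its pattern was similar and larger. The MIN samples had 152, 157 and 145 CPM, the adenoma samples 98.0, 83.5 and 57.5, and the sulindac-treated samples 128, 104 and 125. The 3 groups did not overlap, with MIN highest and adenoma lowest. Erbb3 was lower in adenoma than in MIN, with a log2 fold change of -0.92 (SE 0.18, adjusted p = 0.00249 by edgeR's quasi-likelihood test), and with library size alone this was -0.78, or -0.91 relative to the median of all genes, with an adjusted p of 0.0102 by edgeR. The steps from adenoma to sulindac (0.59, SE 0.20, adjusted p = 0.0459 by edgeR's quasi-likelihood test) and from MIN to sulindac (-0.34, SE 0.10, adjusted p = 0.0173) did not pass at an FDR of 1%. By the DESeq2 Wald test the differences from MIN after sulindac passed for Erbb2 (adjusted p = 0.00964) and Erbb3 (adjusted p = 0.00593). The epithelial marker sum, a mixed list as given above, was also lower in adenoma than in MIN, and its part in the receptor values was not tested.

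Per kilobase of the longest transcript, Erbb2 and Erbb3 were at 26.6 ± 1.03 and 25.1 ± 1.00 CPM in MIN and Egfr at 4.5 ± 0.854 (SD, n = 3). By longest transcript, the group means of Egfr were below those of the other receptors in MIN, adenoma and sulindac-treated samples. With the mean transcript length Egfr was at 14.3 and Erbb3 at 13.2 CPM per kilobase in adenoma, so that order depends on which transcripts were present, which gene counts do not show.

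The rest of the pathway was described by lists. The counts of calls in each list stand beside the shares of all genes tested that were called. These were 38.7% for adenoma against MIN, 17.4% for sulindac against adenoma and 49.7% for sulindac against MIN. In the same order, 18.5%, 8.32% and 23% were called higher and 20.1%, 9.1% and 26.8% lower. ERBB4, the remaining receptor of the family, had 0 counts in all 9 samples, and the neuregulins Nrg1, Nrg2 and Nrg3 had at most 3 counts in any sample. Nrg4, a ligand of ERBB4, was the only one of these tested. It was at 1.98 ± 0.436 CPM in MIN, 0.561 ± 0.268 in adenoma and 0.579 ± 0.345 after sulindac (SD, n = 3), lower in adenoma than in MIN (log2 fold change -1.82, SE 0.38, adjusted p = 0.00347 by edgeR's quasi-likelihood test) with little difference after sulindac (0.07, adjusted p = 0.94 by edgeR). Sulindac-treated samples were lower than MIN (-1.77, adjusted p = 0.00967 by edgeR).

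Among 11 genes that act in ligand shedding, 9 were tested for adenoma against MIN, of which 1 rose and 1 fell. The gene that rose was Rhbdf1, an iRhom that escorts ADAM17 to the surface, from 40.1 ± 6.55 to 88.4 ± 13.1 CPM (SD, n = 3; adjusted p = 0.000383 by edgeR's quasi-likelihood test). The gene that fell was Timp3, an inhibitor of ADAM17 and other metalloproteinases. It had 240 to 302 counts in the MIN samples and 0 to 1 in the adenoma samples, a ratio of 337 with an exact 95% counting interval of 93 to 2790. After sulindac 8 were tested against adenoma and 2 rose. These were Adam9, from 66.0 ± 6.54 to 112 ± 6.67 CPM, and Adam15, from 22.7 ± 3.39 to 40.4 ± 2.17 CPM (SD, n = 3; adjusted p = 0.00155 and 0.00144 by edgeR's quasi-likelihood test), both membrane proteases. Against MIN, sulindac-treated samples were higher in 4 of 9 (Adam10, Adam9, Adam15 and Rhbdf1) and lower in Timp3. Adam17 itself did not pass in any comparison.

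The receptor feedback list held 12 genes taken as regulators of the receptors. Of these, 2 were higher in adenoma than in MIN (Cblb and Socs5) and 2 lower (Lrig3 and Ptpn2). Whether each of them inhibits the receptors in these cultures was not tested. Lrig3, a membrane protein of the LRIG family, had 1464 to 1769 counts in the MIN samples and 0 in all 3 adenoma samples, at least 458-fold lower. Its sulindac-treated samples had 0 to 1 counts, a ratio to MIN of 3780 with an exact 95% counting interval of 677 to 149000. Socs5, a suppressor of cytokine signaling that also acts on EGFR, rose from 15.6 ± 0.658 to 30.0 ± 4.22 CPM, and the phosphatase gene Ptpn2 fell from 56.8 ± 2.81 to 36.0 ± 2.52 CPM (SD, n = 3; adjusted p = 0.000407 and 0.000853 by edgeR's quasi-likelihood test). After sulindac 0 of the 11 tested against adenoma passed in either direction by edgeR's quasi-likelihood test, with 0 at an unadjusted p under 0.05 and 0 called by the DESeq2 Wald test. Against MIN 2 were higher (Cblb and Socs5) and 4 lower (Lrig3, Cbl, Socs4 and Ptpn2).

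Of 10 feedback regulators of the ERK pathway, 3 were higher in adenoma than in MIN (Spry2, Dusp6 and Dusp7) and 1 was lower (Dusp5). The call of Spry2 was kept in only 5 of 13 settings. Same-numbered samples as blocks were among those that ended it (adjusted p = 0.0165 by edgeR). Dusp6, an ERK phosphatase that ERK signaling induces, rose 2.92-fold, from 37.0 ± 6.50 to 108 ± 14.3 CPM, and Dusp7, a related phosphatase, rose 2.04-fold. Dusp5, a nuclear ERK phosphatase, fell from 8.48 ± 0.73 to 3.05 ± 0.454 CPM (SD, n = 3; adjusted p = 5.93e-05, 0.000354 and 0.000274 by edgeR's quasi-likelihood test). After sulindac 2 of 10 were called higher than in adenoma and 0 lower. Those called were Dusp4, another phosphatase, from 71.5 ± 2.79 to 183 ± 17.2 CPM (SD, n = 3; adjusted p = 0.000144 by edgeR's quasi-likelihood test), and Spry2, 1.40-fold (adjusted p = 0.0064). This Spry2 call was kept in 6 of 13 settings. Dusp6, Dusp7 and Spry4 lay below untreated adenoma without overlap (log2 fold change -0.40, -0.48 and -0.76). They did not pass (adjusted p = 0.0251, 0.0171 and 0.0687 by edgeR's quasi-likelihood test). Against MIN, sulindac-treated samples were higher in 4 (Spry2, Dusp4, Dusp6 and Dusp7) and lower in 2 (Spry4 and Dusp5), with Spry4 falling 3.11-fold.

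Of 15 adaptors and genes of the RAS, RAF, MEK and ERK chain, 1 was higher and 1 lower in adenoma than in MIN. Gab1, an adaptor of receptor kinases, was 1.55-fold higher, and Map2k2, a MEK gene, was 1.52-fold lower (adjusted p = 0.00361 and 0.00558 by edgeR's quasi-likelihood test). The call of Gab1 was kept in 8 of 13 settings and was lost when some samples were left out (adjusted p up to 0.0189 by edgeR). That of Map2k2 was kept in 7 of 13 settings, and fitting same-numbered samples as blocks was among those that ended it (adjusted p = 0.0113 by edgeR). After sulindac 0 of the 15 passed against adenoma by edgeR's quasi-likelihood test, with 2 at an unadjusted p under 0.05 and 0 called by the DESeq2 Wald test. Gab1, Sos1 and Araf were higher after sulindac than in MIN, by 1.28-fold to 1.37-fold.

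Of 7 genes induced by ERK signaling, 2 were higher in adenoma than in MIN. Phlda1 rose 3.04-fold, from 119 ± 18.1 to 363 ± 63.4 CPM, and Etv5, an ETS transcription factor, rose 1.51-fold, from 44.2 ± 3.71 to 66.7 ± 0.931 CPM (SD, n = 3; adjusted p = 6.76e-05 and 0.00121 by edgeR's quasi-likelihood test). After sulindac Etv5 was the only 1 of the 7 that passed, and it fell to 27.8 ± 2.76 CPM, below MIN as well (adjusted p = 0.00015 against adenoma and 0.000617 against MIN by edgeR's quasi-likelihood test). Phlda1 was still at 338 ± 20.1 CPM (SD, n = 3) and, like Ier3, higher than in MIN. Median log2 fold changes of the shedding, receptor feedback, ERK feedback, adaptor and chain, and ERK target lists were 0.07, 0.14, 0.08, 0.09 and 0.34 for adenoma against MIN and 0.01, 0.04, -0.17, 0.07 and -0.02 for sulindac against adenoma, beside -0.01 for all genes in each comparison. Of the 44 calls of pathway genes over the 3 comparisons, 28 were kept in every setting in which the gene was tested. These include Lrig3 and Timp3 in the comparisons with MIN, which passed the low-count filter through their MIN levels. With at least 10 counts in every sample Lrig3 and Timp3 were not tested. Calls lost in some setting were those of Nrg4, Cblb, Spry2, Gab1 and Map2k2 for adenoma against MIN, and of Adam15 and Spry2 for sulindac against adenoma. For sulindac against MIN they were those of Nrg4, Adam10, Cbl, Socs4, Dusp5, Dusp7, Gab1, Araf and Ier3.

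**Figure D4:**
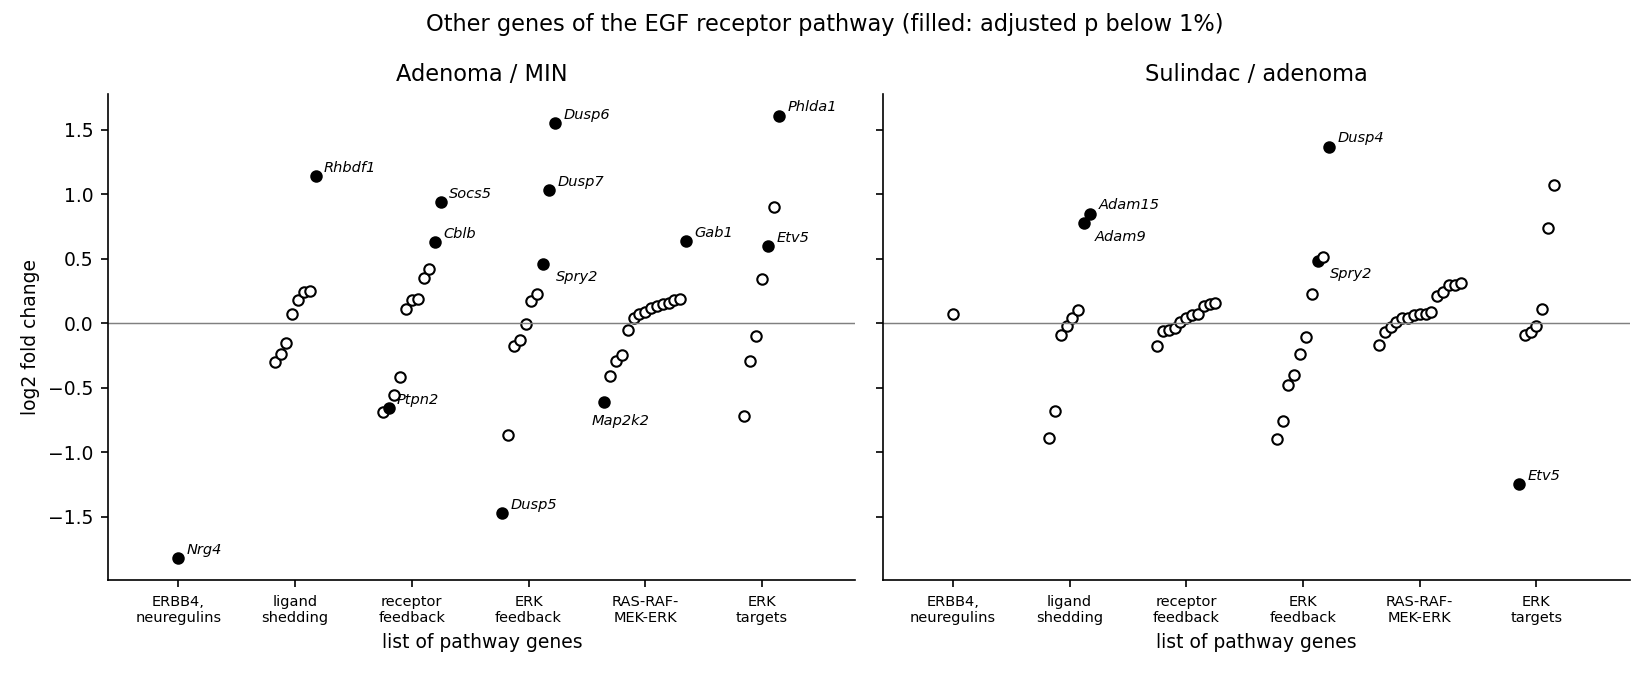
log2 fold change of the tested genes of each pathway list, for adenoma against MIN and sulindac against adenoma. Filled, named points have an adjusted p below 1%, and Lrig3 and Timp3 are left out because a group had at most 1 count. Dusp6, Dusp7, Phlda1 and Rhbdf1 stand above 1 for adenoma, and Dusp4 is the highest and Etv5 the lowest filled point for sulindac.

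Genes whose pattern over the 9 samples was most like that of a member were found among 12621 genes by the mean absolute difference of centred log2(CPM + 0.5) values. For Areg they were Rhof, Wdr65 and Nupr1, at 0.352, 0.391 and 0.410 log2 units. Nupr1 was at 75 ± 43.1 CPM in MIN, 9.93 ± 3.81 in adenoma and 64.7 ± 29.5 after sulindac, and Rhof at 21.6 ± 6.56, 4.04 ± 1.01 and 27.5 ± 2.72 (SD, n = 3). Wdr65 was at 2.6 ± 1.04, 0.151 ± 0.0865 and 5.99 ± 0.203 CPM (SD, n = 3), higher after sulindac than in MIN. Its adenoma level was below the 0.5 CPM added before the log, so its distance depends on that value. For Erbb3 they were Vps13d, Iqgap2 and Gna13, at 0.0444, 0.0784 and 0.0805 log2 units. Vps13d averaged 164, 90.8 and 128 CPM in MIN, adenoma and sulindac-treated samples.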

How the data were processed

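RNA-seq was performed on 9 mouse gut organoid samples in 3 groups of 3, grouped by the sample labels. The authors deposited a table of raw counts that were not normalized, with 23955 gene symbols as rows. The submitters' processing notes name Bowtie2 2.2.4, RSEM and the genome build mm9, and the annotation and strand setting are not given in the sources used here. MIN replicate 1 is given as runs of 20535210 and 20471177 counts and their sum, which was used as 1 sample. In 27 rows the symbol had become a date.

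Genes were filtered with filterByExpr (minimum count 10, minimum total 15), scaled by TMM factors and tested in edgeR 4.0.16 under R 4.3.3 (glmQLFit with robust estimation, glmQLFTest), fitting only the groups compared, with Benjamini-Hochberg adjustment over all genes at an FDR of 1%. The SE was taken as the size of the log2 fold change over the root of its F statistic. CPM used TMM factors over all 9 samples. Depth was 30881206 to 48412477 counts, and intervals and floors (3 counts) cover counting error only. The script was run on simulated counts with the same spread for all genes, few changed genes and no outlying sample. These settings differ from the data, so the run checks the code and not the calls given here.

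MIN and adenoma samples of the same number had deviations from their group means that correlated weakly across genes, at 0.13, 0.11 and 0.19. Samples of different number averaged -0.07, and 3 of 3 adenoma samples correlated best with the MIN sample of their own number. The main fits did not pair samples, and same-numbered samples as blocks were an alternative. The blocks come from the replicate numbers in the labels, and the sources used here do not state that these mark pairs.

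Alternatives were scaling by RLE or by library size alone, dropping the filter or asking for 10 or more counts in each sample, a joint fit of the 3 groups, blocks of same-numbered samples, each sample left out in turn, DESeq2 1.42.0 (Wald test), the mean transcript length and a 5% FDR. Lengths, overlaps and shared 50-base stretches came from GENCODE M21, and promoter windows and gene order from RefSeq (GRCm38.p6), another build than that of the counts. The members and the gene lists were chosen with earlier results of these data known. All members are named. From each pathway list at most 3 genes that passed are given with values in a comparison, those with the largest change, and the receptor and ligands of the neuregulin list in every case. The genes most like a member were sought for the ligand and the receptor with the largest change between adenoma and MIN among those tested in all 3 comparisons. Motifs and chromosome neighbours were chosen after values were seen. A gene of the adaptor and chain list is not reported here.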

Additional observations from a re-analysis of the deposited data

How the results depend on the processing

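With 3 samples a group, only large or tight differences pass at an FDR of 1%. In the main fits Epgn, and Ereg for sulindac against adenoma, were too close to 0 counts for a test. Areg and Btc for sulindac against adenoma, Tgfa and Egf for adenoma and for sulindac against MIN, and Ereg where it was tested kept their calls in the settings run. At least 10 counts in every sample removed Ereg and, in the comparisons with sulindac, Egf from the test. Of the log2 fold changes of members over all settings, 303 kept direction and side of the threshold, 9 fell short of it, 5 newly passed and 17 changed sign, and the cause was not tested. The genes called for sulindac against adenoma were 1078 higher and 1179 lower. With library size alone there were 603 and 1983, so that the share called higher was 23.3% in place of 47.8%, with a median log2 fold change of -0.18 in place of -0.01. Under the same scaling the median was 0.12 for adenoma against MIN. The DESeq2 Wald test called 1778 genes higher. Leaving out samples gave 423 to 1403 higher and 386 to 1488 lower, the lowest without sulindac replicate 3. A looser FDR of 5% gave by construction more calls, 2034 and 2374, with 4 members higher and 1 lower. For sulindac against MIN the members called lower were 0 with at least 10 counts in every sample (Ereg and Egf were then not tested), 4 with DESeq2 and 4 at an FDR of 5%. Leaving out samples gave 2 to 4 lower and 1 to 2 higher (2 without MIN replicate 3). The 4 lower came without sulindac replicate 1, where Erbb2 (adjusted p = 0.00995 by edgeR) and Epgn joined Ereg and Egf. Epgn was near 0 counts and was not tested in the main fit. Signs turned only for values that did not pass. With library size alone Egfr became 0.02 for adenoma against MIN, and for sulindac against adenoma Tgfa became -0.09, Egfr -0.11 and Nrg4 -0.09. Leaving out samples moved Hbegf from -0.59 to 0.15 and Egfr from -0.23 to 0.05 for adenoma against MIN. For sulindac against adenoma Tgfa ranged from -0.05 to 0.17, Egfr from -0.05 to 0.20 and Nrg4 from -0.27 to 0.51. For sulindac against MIN the ranges were -0.31 to 0.84 for Areg, -0.10 to 0.63 for Hbegf, -0.48 to 0.20 for Btc and -0.17 to 0.10 for Egfr. With the replicate block, Areg was 0.21 for sulindac against MIN (adjusted p = 0.514 by edgeR), no member call changed, and the genes called were 2531 higher and 2733 lower for adenoma against MIN, 872 and 1061 for sulindac against adenoma, and 3280 and 3791 for sulindac against MIN. In the comparisons with sulindac a pairing by number was less clear than for adenoma against MIN. Same-numbered correlations were 0.26, 0.21 and -0.08 with adenoma and -0.03, 0.41 and 0.26 with MIN, and 2 of 3 samples correlated best with their own number in each. Among the pathway genes, the block ended the calls of Spry2 for sulindac against adenoma and of Adam10 for sulindac against MIN (adjusted p = 0.0181 and 0.0115 by edgeR) beside those of Spry2 and Map2k2 given above.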
